A study of Bos taurus with 12 samples.

Results

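The change from the 8-16-cell stage to the expanded blastocyst was compared in bovine embryos derived from oocytes of adult cows. All 3 arrays labelled as adult-derived blastocysts were set against all 3 labelled as adult-derived 8-16-cell embryos, which is 6 of the 12 arrays in the series. The other 6 arrays hold the same stages made from oocytes of prepubertal heifers 9 to 12 months of age, and they entered only a side-by-side comparison at the end. All animals were Japanese Black cattle of no stated genotype, and the age of the adult cows was not given in the sources used here. Ovaries of the adult cows came from an abattoir. Both stages shared in vitro maturation in serum, fertilization with frozen-thawed semen of a Japanese Black bull, removal of the cumulus cells and culture at low oxygen. Zygotes spent 2 days in a medium with albumin and then 5 days in the same medium with 10% fetal bovine serum. Each 8-16-cell sample was a pool of 50 embryos taken on day 3, at 70 to 72 hours after insemination. Each blastocyst sample was a pool of 10 expanded, unhatched embryos taken on day 7. Embryos were picked for normal form, so arrested embryos were not sampled. Stage, number of embryos per pool, days in serum and the sample numbers in the titles (90, 91 and 94 against 63, 65 and 68, whose meaning the labels do not give) cannot be told apart.

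In cattle the 8-16-cell embryo stands at the point where RNA stored in the oocyte is being removed and the embryo's own genome takes over transcription. By the expanded blastocyst an outer epithelium, the trophectoderm, encloses a fluid-filled cavity and an inner cell mass. The trophectoderm is known for keratin filaments, tight junctions, ion pumping into the cavity and, in ruminants, for secreting interferon tau, the signal by which the embryo is recognised by the mother.

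RNA of each pool was amplified and hybridized to an Affymetrix bovine genome array, and the deposited value is a MAS5 signal per probe set. A probe set was called above background on an array where its signal passed the highest of 27 bacterial control probe sets, which lay between 122 and 251 on the 8-16-cell arrays and between 187 and 282 on the blastocyst arrays. By this limit 5482 to 7148 of 24016 probe sets were above background on the 8-16-cell arrays and 6093 to 7009 on the blastocyst arrays (difference of means 7.33, exact two-sided permutation p = 1; 0.1 is the smallest p that 3 against 3 arrays can give). Signals of arrays of one stage correlated at r = 0.588 to 0.654 over probe sets, and those of different stages at 0.437 to 0.537. The array's control probe sets for transcript ends were not alike at the 2 stages. The 3′ end of GAPDH was above background on 1 of 3 8-16-cell arrays and on 3 of 3 blastocyst arrays, and its 5′ end on none. The 3′ end of EF1A was at background on the 8-16-cell arrays (59.3 to 246) and at 6274 to 10102 in blastocysts, while its 5′ end was above background on all 6, so its 3′ to 5′ ratio was 27.3-fold higher in blastocysts (exact permutation p = 0.1). Ratios of the other controls, blastocyst over 8-16-cell, were 86.5 for GAPDH (p = 0.1), 8.85 for cyclophilin (p = 0.3), 2.16 for GST (p = 0.9), 1.78 for actin (p = 0.5) and 0.716 for EIF4E (p = 0.7), each by the same exact permutation test. Only EIF4E and EF1A had an end above background on every array of both stages. The part of these differences in the results below was not tested.

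Of the stage markers, KRT8, KRT18, IFNT2, DNMT3A and DNMT3B were called higher in blastocysts, and BMP15 and KLF4 were called lower. The call of IFNT2 was lost under 12 of 16 alternative settings, that of KLF4 under 9, DNMT3A 8, DNMT3B 5 and KRT8 3. The calls of KRT18 and BMP15 were lost under none. The lowest blastocyst array of IFNT2 (231) lay below its highest early one (255). POU5F1, GDF9, ZP3 and DNMT1 did not pass. The oocyte marker ZP3 read 101, 8.48 and 7.92 at the 8-16-cell stage and 204, 119 and 261 in blastocysts. SOX2 and NLRP5 were at background on all 6 arrays. Markers of other cell types were also read. Of 24 cumulus and granulosa cell genes, 2 fell (8.33%) and none rose, where 2.01% of all 9155 named genes fell and 2.74% rose. Without 8-16-cell replicate 2 or 3 or any one blastocyst array, 1 fell. The prostaglandin receptor PTGFR read 5416, 6231 and 14448 at the 8-16-cell stage and 171, 44.1 and 345 in blastocysts (adjusted p = 0.00322), and the protease ADAMTS1 read 111, 2168 and 26025 against 6.7, 132 and 29.3 with overlapping stages (adjusted p = 0.0322). The summed signal of these 24 genes ran from 11674 to 64938 on the 8-16-cell arrays and from 8020 to 16253 on the blastocyst arrays, and 11 of them were at background on all 6. Their part in the genes that fell was not tested. None of 23 blood cell genes and none of 12 sperm genes was called. The blood list summed to 1655 to 2610 against 1062 to 1669, with 15 of its genes at background on all 6 arrays, and the sperm list to 806 to 6382 against 2062 to 8388, with 5 at background on all 6.

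Blastocysts gained LGALS3, PDPN, FN1 and KRT18 from background and lost LOC513055, GRO1, KPNA7 and BMP15 to background. At an adjusted p of 0.05 in limma, 747 of 24016 probe sets were called, which is 3.11% of those tested: 439 were higher in blastocysts (1.83%) and 308 lower (1.28%). A call needed a large change. The median size of a called difference was 5.13 on the log2(signal + 16) scale for the higher probe sets and 4.90 for the lower ones, and the smallest were 1.63 and 1.32. All 3 arrays of the dimmer stage were at background in 189 of the higher and 116 of the lower probe sets, so that only a lower bound of the fold can be given. A further 67 and 76 were above background on all 6 arrays. The 3 arrays of one stage did not overlap those of the other in 424 of the 439 and 296 of the 308, where 17.2% of all probe sets had no overlap. The count depended on which arrays entered the fit: it was 301, 327 and 225 without blastocyst replicate 1, 2 and 3, and 426, 566 and 423 without 8-16-cell replicate 1, 2 and 3. One fit over all 12 arrays called 512, of which 508 were among the 747.

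**Figure D1:**
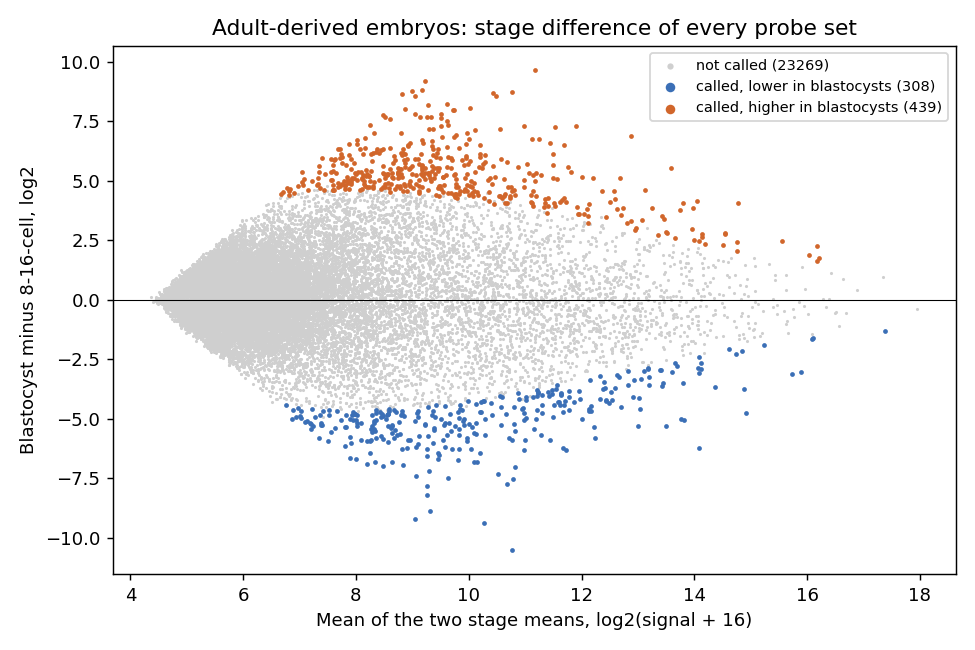
Difference between the stage means of each probe set (vertical, log2 of signal + 16, blastocyst minus 8-16-cell, 3 arrays each) against the mean of both stages (horizontal). The 439 called higher and 308 called lower lie at the upper and lower edges, and called differences are smaller among bright probe sets than among dim ones.

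Genes are counted below on 1 probe set each, that of the highest mean, which gives 9155 named genes. Of these 251 rose (2.74%) and 184 fell (2.01%), and their median difference was 0.13. These shares are the baseline for the list counts below. In bulk pools, fewer cells of a type and less RNA per cell cannot be told apart.

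The annexins and galectins, which bind membranes and sugars at the cell surface, held the gene with the largest rise. LGALS3, the galectin-3 lectin, read 4.8, 111 and 186 on the 3 8-16-cell arrays and 45785, 51560.1 and 119277 on the 3 blastocyst arrays. All 3 early signals were at background, and the rise was at least 307-fold (adjusted p = 1.13e-08). ANXA2, a calcium-dependent membrane and actin binding protein, went from 5.06, 224 and 12.8 to 7426, 9438 and 6039, at least 35.3-fold (adjusted p = 0.00033). Its 3 blastocyst arrays stood far above the early ones, which were again at background. ANXA1 rose at least 8.38-fold, LGALS1 at least 4.06-fold and ANXA3 at least 5.5-fold, ANXA3 with 1 blastocyst array at background (113). Of 17 measured members 5 rose (29.4%) and none fell, against 2.74% and 2.01% over all named genes. The median over the 17 was 1.76. Without any one 8-16-cell array, or without blastocyst replicate 2 or 3, 3 rose, and without blastocyst replicate 1 it was 4.

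**Figure D2:**
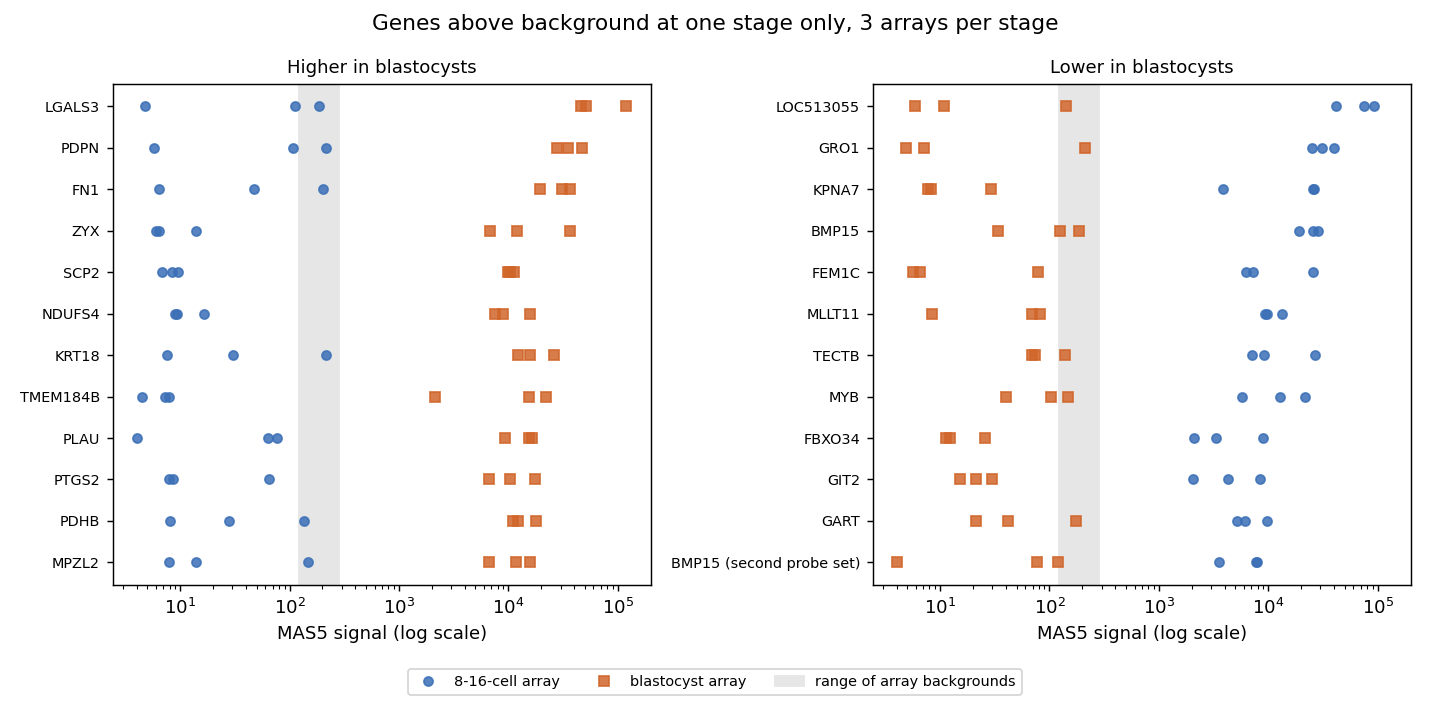
MAS5 signal on each array (log axis) of the named probe sets with the smallest p among those above background on all 3 arrays of one stage and at background on all 3 of the other, 12 per direction. Circles are 8-16-cell arrays, squares blastocyst arrays and the grey band the array backgrounds of 122 to 282. The dim stage lies within or below the band and the bright stage well above it, with LGALS3 at 45785 to 119277 in blastocysts.

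A few keratins and S100 proteins rose as well. KRT18 and KRT8 pair into the filaments of simple epithelia. KRT18 read 7.53, 30.4 and 217 at the 8-16-cell stage and 25915, 15656 and 12356 in blastocysts, at least 80.3-fold (adjusted p = 1.61e-05), and KRT8 read 81.9, 19.6 and 96.6 against 7205, 2694 and 2306, at least 16.7-fold (adjusted p = 0.00772). The stages did not overlap in either gene. S100A14, a calcium-binding protein of epithelia, went from 68.2, 5.78 and 196 to 4445, 19795 and 2358, at least 27.9-fold. These were the 3 of 26 measured members that rose (11.5%), none fell, 10 were at background on all 6 arrays and the median was 0.65. Leaving out any one blastocyst array left 2.

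Matrix and surface genes gave several of the largest rises. PDPN, podoplanin, a mucin-like surface glycoprotein, read 107, 5.73 and 215 early and 28002, 34802 and 46781 in blastocysts, at least 168-fold (adjusted p = 7.58e-07). FN1, the matrix glycoprotein fibronectin, read 46.9, 202 and 6.45 against 30707, 36986 and 19294, at least 131-fold (adjusted p = 1.78e-06). No early array of either gene was above background. FN1 was also the only gene of 19 (5.26%) on the list for primitive endoderm, the layer that lines the inner cell mass, that passed the test, and none of that list fell. Without 8-16-cell replicate 2, 3 of them rose, and without any other single array 1 did. NID1, nidogen, which links laminin and collagen in basement membranes, rose at least 54-fold, and PLAU, the urokinase plasminogen activator, at least 62.7-fold (64.2, 4.05 and 76.6 against 15533, 9356 and 16434). CD9, a tetraspanin, was measured at both stages, with 4267, 809 and 1689 against 65834, 39969 and 32834, a 24.3-fold rise. In all, 7 of 50 members of this list rose (14%) and none fell, with a median of 0.62, and 6 to 8 rose when 1 array was left out.

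Actin genes gave the second largest number of rising members among the lists. Of 65 measured genes of actin filaments and focal adhesions 14 rose (21.5%) and 1 fell (1.54%), with a median of 1.35 against 0.13 over all named genes. ACTG1, cytoplasmic gamma-actin, was above background everywhere, at 173, 3547 and 483 in 8-16-cell pools and 59548, 121467 and 73938 in blastocysts, a difference of 6.87 ± 0.90 (SE) on the log2 scale (adjusted p = 3.79e-07). The lowest blastocyst array was still well above the highest early one. ZYX, the focal adhesion protein zyxin, read 6.06, 6.47 and 14 against 12083, 6851 and 36922, at least 68.1-fold, and PLS1, an actin-bundling plastin of microvilli, rose at least 61.2-fold (62.7, 68 and 109 against 21323, 12248 and 8493). The tropomyosins, which lie along actin filaments, were partly measured early: TPM4 read 2.88, 1400.4 and 359.9 against 15824, 34089 and 22938 and TPM1 read 5, 401 and 6.23 against 6028, 8846 and 14429.9. Their early arrays disagreed with each other, but none reached the blastocyst range. The one member that fell was SVIL, supervillin, a membrane-bound actin binder, with 24061, 2656 and 37264 early and 17.3, 966 and 345 late (adjusted p = 0.0017), and it lost its call without 8-16-cell replicate 1 or 3. The count of risers was 7 without blastocyst replicate 3, 9 without blastocyst replicate 1 or 2, and 12 to 13 without any one 8-16-cell array.

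Fewer junction genes were called. CLDN6, a claudin of tight junctions, read 14, 253 and 4.78 early and 3947, 11522 and 10734 in blastocysts, a difference of 7.16 ± 1.35 (SE, adjusted p = 0.000333), with 1 early array just above background. PRKCI, an atypical protein kinase C of apical polarity, rose at least 16.7-fold (114, 8.11 and 8.77 against 4628, 1747 and 5492). CTNNA1, alpha-catenin, which ties cadherins to actin, was measured on all 6 arrays, at 1015, 898 and 1063 and 23081, 10577 and 13492, a 14.8-fold rise (adjusted p = 0.0139). The 3 early arrays agreed closely. EPCAM, an epithelial adhesion molecule, read 8168, 925 and 192 against 21017, 13954 and 15010.2 (adjusted p = 0.0223). These 4 of 43 measured junction genes rose (9.30%, against 2.74% over all named genes) and none fell, with a median of 0.35. There was 1 riser without blastocyst replicate 3 and 2 without blastocyst replicate 1 or 2.

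The genes that fill and hold the cavity moved in both directions. The sodium pump drives fluid into the blastocoel, and aquaporins let water follow. ATP1B3, a beta subunit of the pump, read 15572, 8843 and 5401 at the 8-16-cell stage and 74193, 48507 and 67160.2 in blastocysts, a 6.86-fold rise (adjusted p = 0.00396). ATP1B1, another beta subunit, was lower in blastocysts, with 17609.8, 8479 and 21713 against 8644, 625 and 197, 14-fold (adjusted p = 0.0273). The highest blastocyst array of ATP1B1 overlapped the early range, which no array of ATP1B3 did. AQP3, a water and glycerol channel, read 3541, 10822 and 107 against 16157, 33175 and 25067 (adjusted p = 0.0162), and CLIC1, a chloride channel protein, rose 14.6-fold (2364, 1312 and 5293 against 49373, 27666 and 37958). Of 23 measured members 3 rose and 1 fell, and the median was -0.27, below that of all named genes. None rose without blastocyst replicate 3 and 1 without blastocyst replicate 1, and the call of ATP1B1 was lost without any one 8-16-cell array or without blastocyst replicate 2 or 3.

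Trophoblast products gave few calls. PTGS2, the inducible prostaglandin synthase, read 8.64, 64.9 and 7.94 early and 17529, 10347 and 6649.6 in blastocysts, at least 50-fold (adjusted p = 2.79e-05). IFNT2, an interferon tau gene, read 255, 9.79 and 15.4 against 231, 2349.9 and 7991 (adjusted p = 0.0457). The 3 blastocyst arrays of IFNT2 spread over more than an order of magnitude, and the lowest lay inside the early range. Interferon tau genes are near-identical copies, so the probe set may read several of them. These 2 of 25 members rose (8%, against 2.74% over all named genes), none fell and 12 were at background on all 6 arrays. Without 8-16-cell replicate 2 or 3 or blastocyst replicate 2 or 3, 1 rose. Among trophectoderm transcription factors KLF5 alone of 16 (6.25%) passed, with 1238, 2267 and 135 against 12882, 15912 and 14905 (adjusted p = 0.011). KLF5 lost its call without 8-16-cell replicate 3 or any one blastocyst array.

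Pluripotency genes were called in both directions. DNMT3B, a de novo DNA methyltransferase on this list, rose at least 15-fold (84.4, 20 and 136 against 3225, 1816 and 5459, adjusted p = 0.0133). KLF4, a zinc finger transcription factor, fell 3.1-fold from a very bright early signal, 102116, 99358 and 183214 against 38024, 37946 and 43319.8 (adjusted p = 0.0247). STAT3, the transcription factor of the LIF pathway, read 10722, 7748 and 8148 against 337, 1697 and 411 (adjusted p = 0.0397). The stages did not overlap in any of these 3 probe sets. A second STAT3 probe set went the other way, by 2.40 on the log2 scale, and did not pass (adjusted p = 0.477). POU5F1, the OCT4 factor, read 164, 86.3 and 17.8 early and 727, 2266 and 376 in blastocysts, a difference of 3.36 ± 1.40 (SE) that did not pass (adjusted p = 0.242), although the stages did not overlap. SOX2 was at background on all 6 arrays. With 7 measured genes, 1 up (14.3%) and 2 down (28.6%), the list gave no calls in either direction without any one blastocyst array. None of it fell without 8-16-cell replicate 1 or 3, and without 8-16-cell replicate 2 none rose and 1 fell.

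Of the 40 gene lists, oxidative phosphorylation had the most rising members. Of 79 nuclear-encoded subunits and assembly genes of oxidative phosphorylation 19 rose (24.1%) and none fell. The median difference was 2.37, and 69 of the 79 lay above 0, against 4913 of all 9155 named genes. NDUFS4, a subunit of complex I, read 16.6, 9.45 and 8.96 at the 8-16-cell stage and 15933, 8899 and 7558 in blastocysts, at least 48-fold (adjusted p = 1.48e-05). NDUFB6, of the same complex, rose at least 24.6-fold (9.08, 7.79 and 11.2 against 2673, 3386 and 15853). Both were at background on every early array. COX5B, of complex IV, read 743, 320.3 and 33.6 against 29802, 17629 and 31288 (adjusted p = 4.24e-05), and SDHC, the membrane anchor of complex II, 219.9, 3134 and 671 against 42659, 10113 and 49289.9, a 34.7-fold rise. ATP5IF1, the inhibitor protein of ATP synthase, was higher by 4.07 ± 0.82 (SE) on the log2 scale, but 1 early array (29281) lay within the blastocyst range of 29105 to 112516. The count of 19 became 4 without blastocyst replicate 3, 6 without blastocyst replicate 1 or 2, 12 without 8-16-cell replicate 3 and 15 without 8-16-cell replicate 1 or 2. With the mean over all probe sets of a gene in place of the brightest one, 12 rose.

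Some genes listed under the citric acid cycle and pyruvate entry also rose. PDHB, the beta subunit of pyruvate dehydrogenase, read 8.09, 28 and 135 early and 11067, 12219.5 and 17956 late, at least 63.1-fold (adjusted p = 2.79e-05). The other PDHB probe sets were at background on all 6 arrays. IDH1, on the list though it is the cytosolic isocitrate dehydrogenase, was measured on all arrays. It read 916, 401 and 310.0 against 21502, 27211 and 24107, a 48.1-fold rise (adjusted p = 0.000223). MPC1, of the mitochondrial pyruvate carrier, rose at least 8.62-fold, and FH, fumarase, and MDH2, mitochondrial malate dehydrogenase, had adjusted p of 0.0441 and 0.0451. In all 5 of 27 rose (18.5%), IDH1 among them, none fell, and the median was 1.54. Without blastocyst replicate 2 or 3, 2 rose, and without blastocyst replicate 1 or 8-16-cell replicate 3 the count was 3.

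Mitochondrial membrane transport genes rose in smaller number. VDAC2, an outer membrane porin, read 9350.2, 3761 and 1439.9 early and 53511, 46937 and 52098 in blastocysts, 13.6-fold (adjusted p = 0.000843). SLC25A5, an ADP/ATP carrier, read 3659, 289.8 and 270.4 against 9844, 36050.1 and 42731, 36.1-fold, and SLC25A3, the phosphate carrier, 689, 2239.9 and 25.1 against 15001, 19495 and 29136. The early arrays of these carriers spread widely, and no early array reached the lowest blastocyst one. TOMM7, of the outer membrane import channel, rose as well, while GRPEL1, a cochaperone of matrix import, fell 4.2-fold (adjusted p = 0.0488), a call lost when any single array was left out. Of 37 members 4 rose (10.8%) and 1 fell (2.70%), against 2.74% and 2.01% over all named genes, with 1 rising without blastocyst replicate 3.

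**Figure D3:**
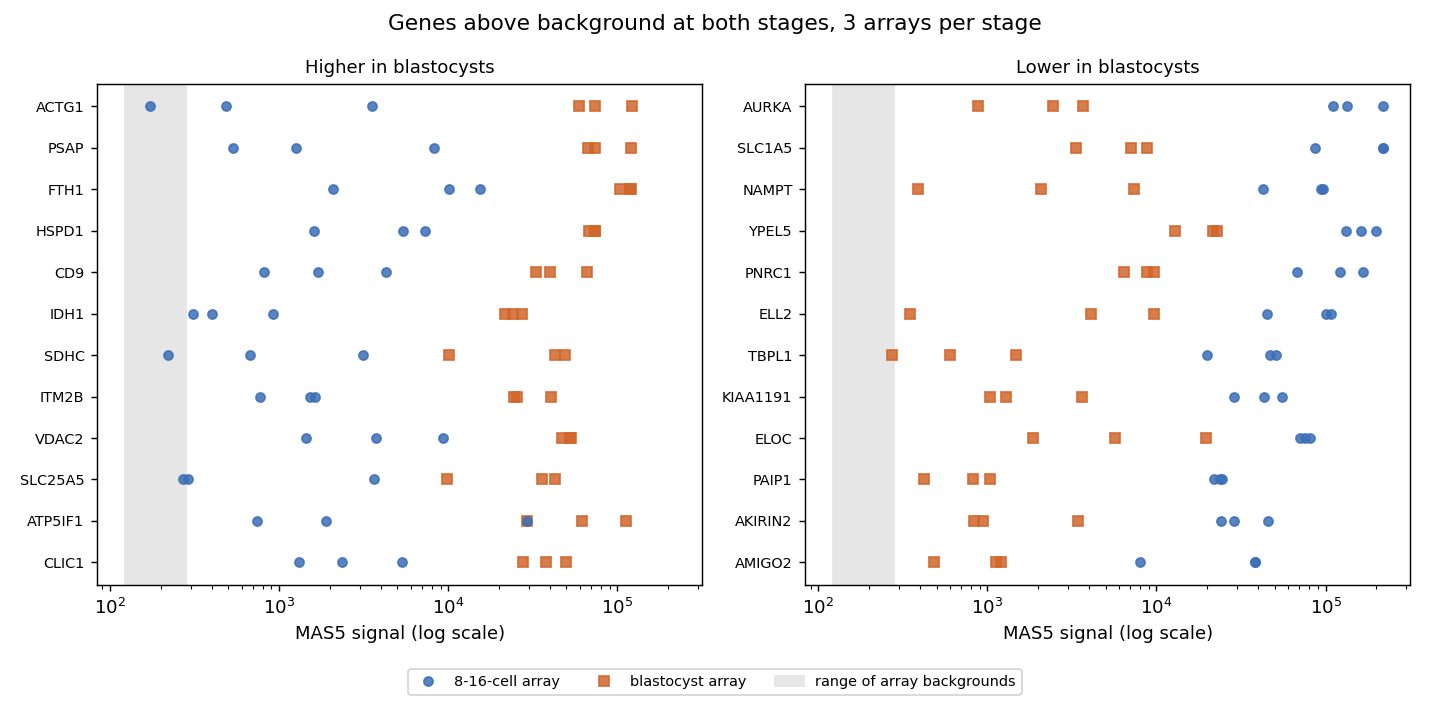
MAS5 signal on each array (log axis) of the named probe sets with the smallest p among those above background on all 6 arrays, 12 per direction. Circles are 8-16-cell arrays, squares blastocyst arrays and the grey band the array backgrounds. The stages are separate for 23 of the 24, and in ATP5IF1 1 early array at 29281 lies within the blastocyst range. The same values chose these probe sets, so their separation is not a test. Over all probe sets 17.2% had no overlap.

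Sugar and lipid genes gave a few calls each. SLC2A5, the fructose transporter, read 3.71, 80.3 and 273 early and 4035, 4951 and 10005 late (adjusted p = 0.0025), and PKM, pyruvate kinase, rose at least 9.77-fold (adjusted p = 0.0406). They were 2 of 32 genes of sugar transport and glycolysis (6.25%, against 2.74% over all named genes), none of which fell. Neither was called without blastocyst replicate 3, and 1 was without any other single array. SCP2, the sterol carrier protein of peroxisomes, read 6.85, 8.52 and 9.63 against 10019, 11304 and 10428, at least 49.6-fold (adjusted p = 1.03e-05), with blastocyst arrays that agreed closely. ACSL3, which activates fatty acids at lipid droplets, rose at least 37.2-fold, SCD, the stearoyl desaturase, at least 6.72-fold and FADS2, a desaturase of polyunsaturated fatty acids, at least 8.72-fold. FADS2 ranged from 301 to 18559 in blastocysts and lost its call under 15 of 16 alternatives, among them the loss of any single array. These 4 of 48 lipid genes rose (8.33%) and none fell, with a median of 0.96, and 2 rose without 8-16-cell replicate 3 or any one blastocyst array.

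Lysosomal, iron storage and antioxidant genes included some of the brightest blastocyst signals. PSAP, prosaposin, the precursor of sphingolipid activators, read 8265, 534 and 1259 early and 67455, 74074 and 120730.0 late, a 47-fold rise (adjusted p = 2.73e-06). FTH1, the ferritin heavy chain, read 15409, 10075 and 2070.1 against 119601, 103532 and 118671, 16.5-fold (adjusted p = 1.27e-05). Blastocyst arrays of FTH1 agreed within a narrow range while the early ones did not. CTSL, the protease cathepsin L, and ATP6V1D and ATP6V1A, of the vacuolar proton pump, rose by 5.94, 4.55 and 3.39 on the log2 scale. On this list 8 of 48 rose (16.7%) and none fell. There were 3 risers without blastocyst replicate 2 or 3 and 4 without blastocyst replicate 1 or 8-16-cell replicate 3. Among redox genes 3 of 43 rose (6.98%) and 2 fell (4.65%), against 2.74% and 2.01% over all named genes. PRDX1 and PRDX2, peroxiredoxins that remove hydrogen peroxide, rose by 4.13 and 6.68 (653, 2093 and 1876 against 26482, 24384 and 22063 for PRDX1), and SELENOP, a secreted selenium carrier, by 4.73. GSTM3, a glutathione transferase, fell at least 9.79-fold. PRDX6 was the one gene of 221 called genes with several probe sets whose probe sets were called in opposite directions: the brightest fell by 3.36 (adjusted p = 0.0146) and another, at background on all 3 early arrays, rose at least 5.32-fold (adjusted p = 0.00883). All probe sets had the same sign in 165 of the 221 genes, and over 1 probe set was called in 1 direction in 29. No redox gene rose without blastocyst replicate 3 and 1 without blastocyst replicate 2. None fell without blastocyst replicate 3 or 8-16-cell replicate 3, and 1 did without 8-16-cell replicate 1 or blastocyst replicate 1 or 2.

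Some chaperone and ribosomal protein genes rose. HSPD1, the mitochondrial chaperonin, read 5431, 1612 and 7291 early and 74121, 73806 and 67954 in blastocysts, 17.9-fold (adjusted p = 5.27e-05). HSP90AA1, an inducible cytosolic chaperone, rose 3.4-fold and CANX, the endoplasmic reticulum chaperone calnexin, 6.76-fold. HSPA1A, the stress-inducible HSP70, fell, with 12153, 10065 and 19827 against 14, 3275 and 3404 (adjusted p = 0.0244), and no array of one stage overlapped the other. HSPA1A has a near-identical neighbour copy, and its probe sets may read both. Of 43 chaperone genes 7 rose (16.3%) and 1 fell (2.33%). There was 1 riser without blastocyst replicate 2 or 3, 2 without blastocyst replicate 1 or 8-16-cell replicate 1, and 4 without 8-16-cell replicate 2. Of the 6 fits with 1 array left out, HSPA1A was called only in that without blastocyst replicate 2. Of 65 cytosolic ribosomal protein genes 7 rose (10.8%) and 1 fell (1.54%), and the median was 1.82. Of their differences 61 were above 0, against 4913 of all 9155 named genes. RPS3 rose 7.94-fold (10118, 12466 and 1409 against 85305, 30766 and 34370.3, adjusted p = 0.0106) and RPL14 rose 17.4-fold. RPS19 fell at least 5.83-fold (3359, 612 and 1341 against 5.1, 6.28 and 11.3). The ribosomal calls depended on which array was left out: 7 rose without 8-16-cell replicate 2, 2 without 8-16-cell replicate 1, 1 without 8-16-cell replicate 3 or blastocyst replicate 2, and none without blastocyst replicate 1 or 3. RPS19 lost its call without 8-16-cell replicate 1. Ribosomal protein genes have many pseudogene copies, and a probe set may read more than one. Among 45 translation factors 2 rose (4.44%) and 1 fell (2.22%), against 2.74% and 2.01% over all named genes. The elongation factor EEF1A1 rose by 1.63 and the initiation factor EIF1 fell by 2.90 on the log2 scale, each on its brightest probe set. Both of these probe sets lost their calls when any single array was left out. None of the 45 genes rose in 5 of those 6 fits, 2 in the one without 8-16-cell replicate 1. A second EEF1A1 probe set rose by 5.56 (adjusted p = 0.00309), so the size of the rise depended on the probe set. The ends of the EF1A control transcript also differed between the stages, and their part in this was not tested.

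Some transcripts known from the oocyte fell. BMP15, a growth factor secreted by the oocyte, read 25584, 19104 and 28328 at the 8-16-cell stage and 187, 125 and 34.2 in blastocysts, at least 98.5-fold lower (adjusted p = 1e-05). A second BMP15 probe set fell at least 24.5-fold (3528, 7842 and 7658 against 77.6, 4.08 and 120.3). Both were at background on every blastocyst array. KPNA7, the importin alpha of oocytes and early embryos, read 3868, 25749 and 25981 against 7.7, 8.33 and 28.9, at least 56.4-fold lower (adjusted p = 8.43e-06), and TECTB, a protein with a zona pellucida domain, fell at least 49.3-fold. These 3 of 11 measured genes fell (27.3%), none rose, the median was -2.86 against 0.13 over all named genes, and 3 fell whichever array was left out. GDF9, the oocyte growth factor related to BMP15, read 780.1, 1249 and 252 against 126, 20.9 and 118, which did not pass (adjusted p = 0.37). NLRP5, of the maternal complex under the oocyte membrane, was at background on all 6 arrays, and ZP3, of the zona pellucida, was above background on 1 blastocyst array only, so neither could show a loss. DNMT1, the maintenance DNA methyltransferase, differed by -0.83 ± 1.39 (SE, adjusted p = 0.897) and was above background on 2 arrays.

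Outside the planned groups the largest fall of all was that of LOC513055, a gene without a standard name. It read 92908, 42028 and 75327 early and 142, 5.93 and 10.9 late, at least 273-fold lower (adjusted p = 3.77e-09). GRO1, a CXC chemokine, read 40273, 31119 and 25168 against 4.9, 211 and 7.2, at least 129.5-fold lower (adjusted p = 5.01e-07). Every blastocyst array of both was at background. The other GRO1 probe sets, 3 in number, were at background on all 6 arrays. Of 71 growth factor genes 2 fell (2.82%, near the 2.01% of all named genes) and none rose. They were GRO1 and SPRY1, an inhibitor of growth factor signalling (at least 9.44-fold), and 1 fell without 8-16-cell replicate 3 or blastocyst replicate 2 or 3. MYB, a transcription factor, fell at least 47.6-fold (12705, 5718 and 21477 against 146, 103 and 39.6), MLLT11 at least 43.5-fold and GART, an enzyme of purine synthesis, at least 27.8-fold.

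Genes of RNA removal and of protein turnover were among those lower in blastocysts. CNOT6 and CNOT6L, catalytic subunits of the CCR4-NOT deadenylase, read 8359, 4956 and 10511 against 162, 924 and 7.47 and 1129.9, 4919 and 1589 against 5.49, 34.9 and 87.7 (adjusted p = 0.00512 and 0.0131). TUT7, which adds uridine to RNA ends, read 9369, 20959.5 and 9178 against 664, 151 and 155 (adjusted p = 0.00186). No blastocyst array of these genes reached the early range. They were 3 of 20 genes of maternal RNA clearance (15%), none of which rose, with a median of -0.97, and 2 fell without any one blastocyst array. Of 142 ubiquitin conjugation genes 10 fell (7.04%) and none rose, with a median of -0.23. Among them FBXO34 and FBXL4, F-box subunits that choose ubiquitin ligase substrates, fell at least 16.4- and 4.93-fold, and USP2, a deubiquitinase, at least 11.6-fold. FBXO33, another F-box gene, read 13516, 6572 and 22408 against 114, 125 and 588 (adjusted p = 0.00111). FEM1C, a substrate receptor of cullin ligases that was not on the list, fell at least 43.2-fold. The 10 became 4 without 8-16-cell replicate 1 or blastocyst replicate 3 and 5 without 8-16-cell replicate 3 or blastocyst replicate 2, and were 7 to 8 without the other arrays.

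Some mitotic and transcription genes also fell, among them genes measured at both stages. AURKA, the mitotic spindle kinase Aurora A, had one of the brightest early signals, 134793, 111308 and 218578, against 2451, 876 and 3679 in blastocysts, a 73.9-fold fall (adjusted p = 3.77e-09), and its second probe set fell by 2.93. CDCA8, of the chromosomal passenger complex, BUB3, of the spindle checkpoint, and CCNB1, cyclin B, fell 12.2-, 7.31- and 7.85-fold. CDKN2C, an inhibitor of cyclin D kinases, was at background on every blastocyst array and fell at least 4.21-fold. So 5 of 77 cell cycle genes fell (6.49%, against 2.01% over all named genes) and none rose, with a median of -0.77. When 1 array was left out 2 to 3 fell, 2 without 8-16-cell replicate 1 or blastocyst replicate 1 or 3. TBPL1, a TATA-binding protein homologue, read 50732, 19825 and 47145 against 274, 1484 and 604, 56.1-fold lower (adjusted p = 4.23e-05), and ELL2, a transcription elongation factor, 32.3-fold lower. PAIP1, which binds the poly(A)-binding protein, fell 32-fold, from early arrays that agreed closely (24462, 23652 and 21802) to 423, 817 and 1034. Of the 12 fallers with the smallest p above background on all 6 arrays, YPEL5, PNRC1, ELOC, AKIRIN2, KIAA1191 and AMIGO2 fell 8.76- to 25.7-fold. Another AKIRIN2 probe set, also above background on all 6 arrays, differed by -1.38 on the log2 scale and did not pass (adjusted p = 0.522). The remaining one, at background on every early array, differed by 0.44 (adjusted p = 0.953). The size of the AKIRIN2 fall therefore depended on the probe set.

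SLC1A5, a glutamine transporter, was among the brightest early genes that fell. It read 218549, 86599.9 and 217590.0 early and 7098, 8788 and 3345 in blastocysts, a 26.9-fold fall (adjusted p = 7.17e-08). NAMPT, the rate-limiting enzyme of NAD salvage, read 96080.1, 42923 and 93986 against 2074, 388 and 7321, 39.7-fold lower (adjusted p = 1.18e-05). In both the lowest early array was several times the highest blastocyst one. GADD45A, a stress and DNA damage gene, fell 13.1-fold, and it was the only called gene of 46 on the apoptosis and DNA damage list. That is 2.17%, near the 2.01% of all named genes that fell. GADD45A lost its call without 8-16-cell replicate 1 or 3 or blastocyst replicate 2 or 3.

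Among nucleolar genes 4 of 57 fell (7.02%, against 2.01% over all named genes) and none rose, with a median of -0.64. RRN3, an initiation factor of RNA polymerase I, was measured on all 6 arrays, with 24124, 14055 and 32898 against 2449, 877 and 1659, 14.5-fold lower (adjusted p = 0.0066). NAT10, an RNA acetyltransferase, DIMT1, a methyltransferase of ribosomal RNA, and NHP2, of the pseudouridine-guiding particles, fell by 5.67, 5.05 and 4.70 on the log2 scale. The count was 2 without 8-16-cell replicate 2 or blastocyst replicate 2.

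Single genes of chromatin and DNA methylation were called in either direction. UHRF1, which brings the maintenance methyltransferase to replicated DNA, read 20649, 18679.9 and 16716 early and 247, 20.4 and 149 in blastocysts, a difference of -7.32 ± 1.21 (SE, adjusted p = 3.47e-05), with 1 blastocyst array above background. DNMT3A, a de novo methyltransferase like DNMT3B, rose 19.4-fold (160.0, 319 and 4012 against 14834, 10347 and 11250.4, adjusted p = 0.0161). HMGB1, an abundant DNA-bending protein, read 5.33, 811 and 215 against 39462, 21077 and 19510.0 (adjusted p = 2.79e-05). The nucleosome-binding proteins went opposite ways, HMGN1 rising by 3.49 and HMGN4 falling by 4.16. Of 74 members 4 rose and 2 fell, which is 5.41% and 2.70% against 2.74% and 2.01% over all named genes, with a median of -0.28. Without any one blastocyst array 1 rose, without 8-16-cell replicate 1 or 2 there were 2, and 1 fell without 8-16-cell replicate 1 or 3 or blastocyst replicate 2.

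Several other lists gave few calls or none, where 2.74% of all named genes rose and 2.01% fell. None of 39 RAB GTPases of vesicle traffic passed the test, with RAB5B at an adjusted p of 0.0855 and RAB7A at 0.183. One of 67 mitochondrial ribosomal proteins rose (MRPL3), 1 of 39 proteasome genes rose (PSMD4) and 1 fell (PSMD9), and 2 of 83 splicing genes rose and 3 fell. Of 87 ZNF zinc finger genes 1 rose and 3 fell, of 29 interferon response genes B2M rose, of 27 imprinted genes MEST fell, and of 49 nuclear transport genes 1 rose and 2 fell. When 1 array was left out, each of these counts lay between 0 and 3.

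Of 15 genes known from genome activation KLF5 rose and KLF4 and HSPA1A fell, and 14 of the 15 differences lay below 0 (median -1.71). Over all 9155 named genes 4242 lay below 0. Called shares were 6.67% higher and 13.3% lower, against 2.74% and 2.01% over all named genes. Neither fall was called without 8-16-cell replicate 1 or 3 or blastocyst replicate 1 or 3, and 1 was without 8-16-cell replicate 2 or blastocyst replicate 2.

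**Figure D4:**
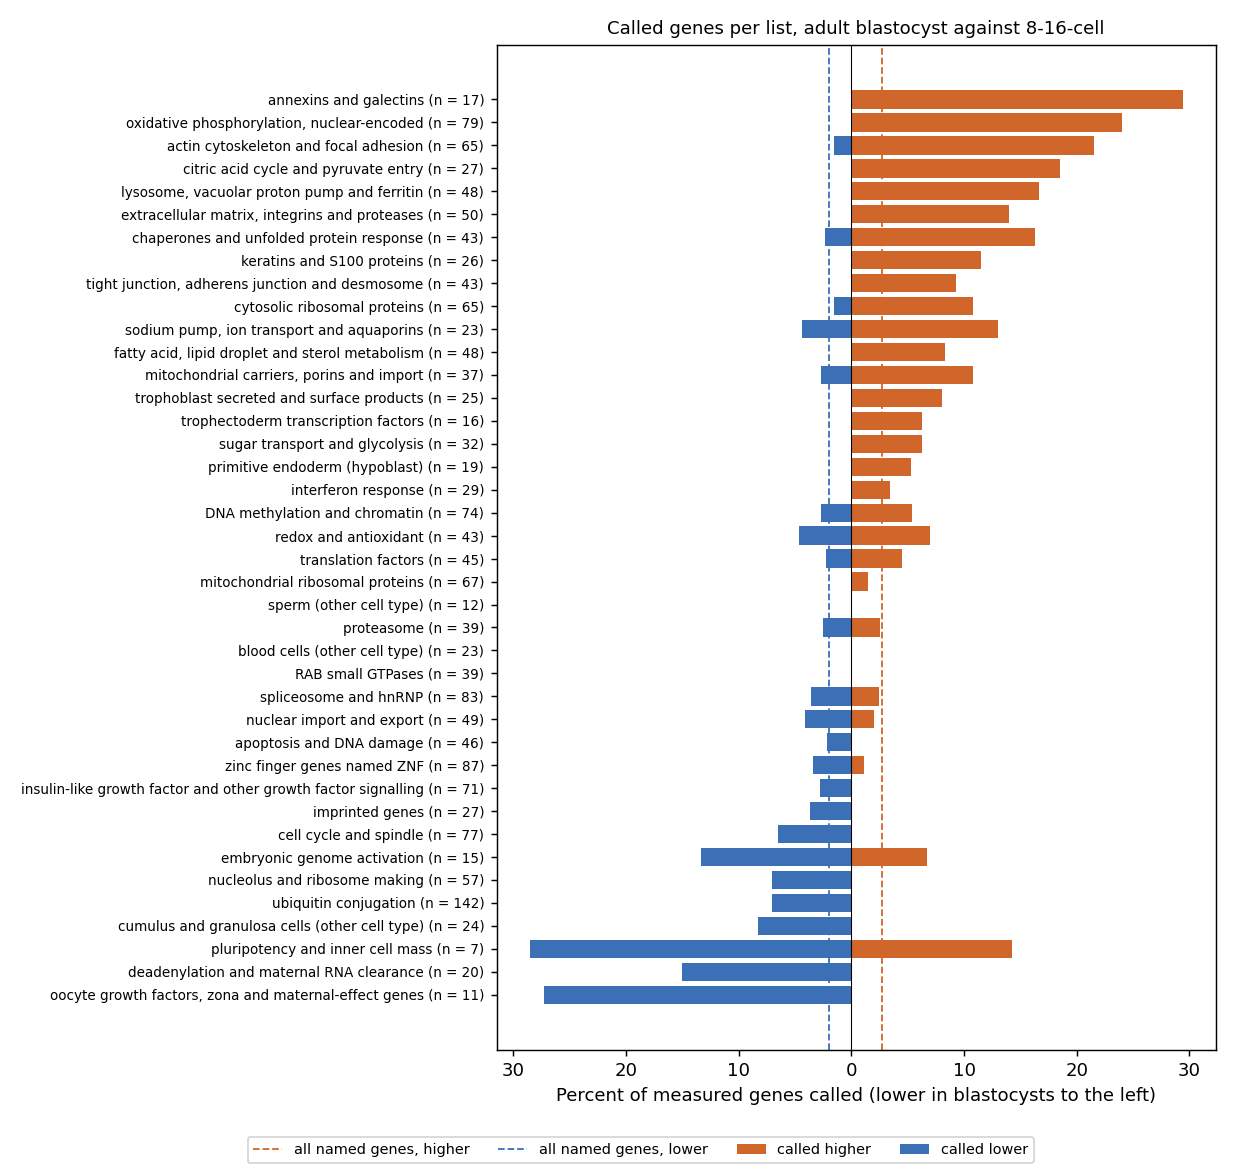
Percent of the measured genes of each list that were called higher (right) or lower (left) in blastocysts, with the number measured in brackets. Dashed lines mark the shares over all named genes, 2.74% higher and 2.01% lower. Lists are ordered by the share called higher minus the share called lower, which puts annexins, oxidative phosphorylation and actin at the top and oocyte genes at the bottom. Bars of short lists stand for few genes.

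The same stage comparison in the heifer-derived embryos shares no array with the adult one. One of its arrays, prepubertal 8-16-cell replicate 3, stood apart, with a background of 1664 and 1255 probe sets above it. The other prepubertal arrays had backgrounds of 172 to 424 and 4297 to 8500 probe sets above them. That array was kept in the fits, and its part in the calls that were not shared was not tested. The heifer comparison called 496 probe sets at the same threshold. These 496 were 2.07% of those tested, and 248 of them were also called, in the same direction, in the adult embryos: 33.2% of the adult calls and 50% of the heifer calls. None was called in opposite directions. Of the 747 adult calls 708, or 94.8%, had the same sign in heifer-derived embryos, against 58.4% of all probe sets, and 167 of the 439 risers and 81 of the 308 fallers were called there too. LGALS3 differed by 9.61 on the log2 scale in heifer-derived and by 9.66 in adult-derived embryos, and GRO1 by -9.86 and -9.37. These are fitted values that depend on the added constant of 16, since the adult embryos had one stage at background. Among the 12 probe sets per direction that went from background to signal or back, 11 risers and 7 fallers were also called. PLAU rose in the adult comparison but did not pass in the other (3.96, adjusted p = 0.104), and neither did FEM1C (-2.85, adjusted p = 0.399), MYB (-2.51, adjusted p = 0.533), FBXO34, GIT2 or GART. The shared count of 248 was 151, 137 and 111 without adult blastocyst replicate 1, 2 and 3, and 110, 124 and 135 without prepubertal blastocyst replicate 1, 2 and 3.

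**Figure D5:**
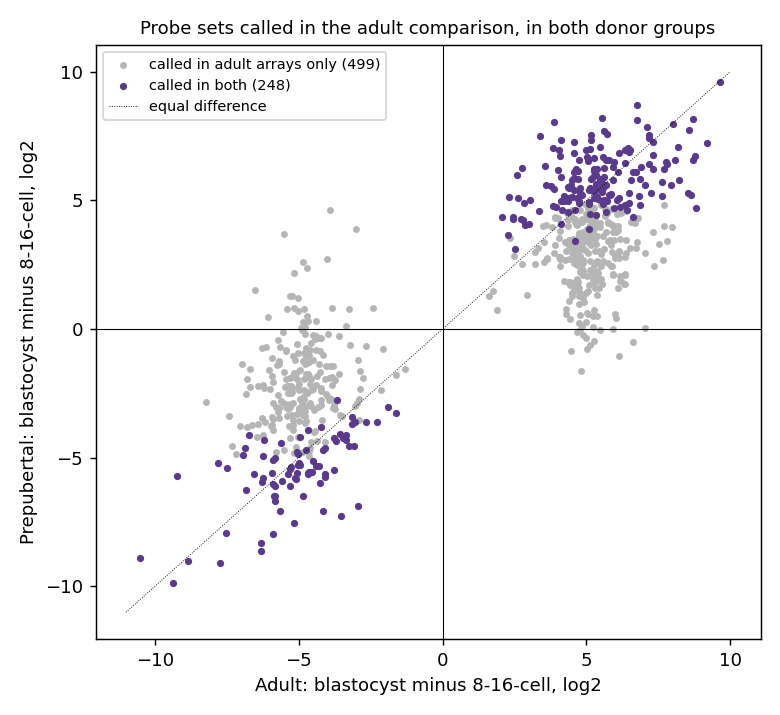
Stage difference in heifer-derived embryos (vertical) against that in adult-derived embryos (horizontal), both log2, blastocyst minus 8-16-cell, for the 747 probe sets called in the adult comparison. The 248 called in both are dark, all in the upper right or lower left, and the 499 others are grey. The adult values chose the points, so sizes on the horizontal axis are not a test.

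Whether the stage change itself differed between donor groups was tested in all 12 arrays with limma. These included prepubertal 8-16-cell replicate 3, the array with the high background. No probe set passed (0 at an adjusted p of 0.05, smallest adjusted p 0.241), 1307 had an unadjusted p below 0.05, and 0 to 1 passed when an array was left out, 1 without adult blastocyst replicate 2, prepubertal 8-16-cell replicate 2 or prepubertal blastocyst replicate 2. The 5 named genes with the smallest p were DYNLT3, a dynein light chain, STK38, a kinase of the Hippo pathway family, SF3A2, a splicing factor, GART and FASTKD2, a mitochondrial RNA protein. DYNLT3 differed by 3.41 in adult-derived and -5.86 in heifer-derived embryos, a difference of 9.27 ± 2.09 (SE, adjusted p = 0.241). STK38 differed by -3.90 and 4.61, and GART by -6.51 and 1.52. These opposite signs did not pass the correction over all probe sets.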

How the data were processed

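RNA was measured in 12 samples of pooled embryos, 3 in each of 4 groups, and the labels call the 3 of a group biological replicates. The deposited table holds 1 intensity per probe set and array on a linear scale, made by the authors with MAS5 (version not given in the sources used here) per the submitters' processing notes. The mean of each adult array, trimmed by 2% at each end, was close to 500, the mark of scaling to one target, and whether other adjustments were made was not tested. The arrays were distinct, with at most 0.00416% of values identical between any of them. Of 24128 probe sets 112 controls were left out and 24016 tested. Depth does not apply to arrays, and their number limits the precision.

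Genes were named from the platform's annotation, updated through the gene identifier in RefSeq's table: 13292 probe sets named 1 gene, 86 several and 10638 none. Of the 13292, 13263 matched by identifier, 2 by accession and 27 kept their name. No coordinates or sequences were used.

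Differences are on log2(signal + 16), which understates changes of dim genes. limma 3.58.1 (R 4.3.3) fitted the 6 adult arrays with stage as the only term and a variance trend, adjusted by Benjamini-Hochberg over all 24016 and called at 0.05. The 4 residual degrees of freedom were joined by 69.6 prior ones, so a standard error mostly reflects probe sets of like brightness. This 6-array fit was chosen with the count from all 12 arrays (512) known. A fold with one stage at background was computed against that array's background and is given as at least that fold. On simulated arrays of 24016 probe sets, 5 of 100 changes of log2 size 3 and 65 of 100 of size 6 were called, and 3 unchanged probe sets. The simulated noise was normal and equal among probe sets of like brightness. Every change lay in the brighter part of the probe sets, and all others were unchanged. The real arrays differ in these points, so the counts do not give the power or false call rate of the stage comparison. Quantities with 1 value per array were tested by exact permutation (scipy 1.17.1).

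Named genes are, per direction, the 12 smallest p above background at 1 stage only and the 12 above it on all 6 arrays, up to 5 called members per list and direction, or the 2 smallest p where none was called, 13 stage markers, and the 5 smallest p for the donor difference. The comparison, the 40 lists and these rules were chosen with earlier results of these data known, so they are not independent support. The further probe sets of PRDX6, AURKA and AKIRIN2 were named after their values were seen. The ratios of control transcript ends were also computed after seeing the signals. Alternatives tried were other fits, scalings, added constants, filters, backgrounds and arrays left out.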

Additional observations from a re-analysis of the deposited data

How the results depend on the processing

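The call counts depended on the dim range and on which arrays were used. With all signals raised to the highest background (11662 probe sets left to test), 220 probe sets were called, 134 higher and 86 lower, and 47 were shared with the heifer-derived embryos. Without a variance trend 185 were called lower and 160 were shared. Leaving out 1 array gave 225 to 566 calls, 115 to 357 higher and 110 to 209 lower, 110 to 339 shared, and 0 to 1 for the donor difference. All 12 arrays (512), array weights (757), quantile scaling (744), centred arrays (692), an added constant of 1 (769) or 64 (519) and a filter on background (794 of 6412 tested) kept the count within 1.5 times. Quantile scaling moved the median difference of all probe sets from 0.08 to -0.03 and centring to -0.07. With the replicate number as a block 570 were called, all among the 747; the numbers do not pair the samples (correlations of deviations 0.022, 0.028 and 0.0097, though each sample correlated best with its own number). With the median control as background the difference in probe sets above it was 1024.33 (exact permutation p = 0.1), and 5 of the 24 switched probe sets kept their dim stage at or below it. The genes that turned sign were 2, neither called: ODF2 to -0.10 without 8-16-cell replicate 1 (up to 3.63 without another array), and DNMT1 to 0.30 without 8-16-cell replicate 2 and 0.07 without blastocyst replicate 1 (down to -2.15 without another). Of 148 named called probe sets 50 kept their call under all 16 alternatives, 21 of the 24 switched and 13 of the 24 measured at both stages. With genes as the mean of their probe sets 155 rose and 87 fell. Causes were not tested.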
